A study of Mus musculus with 6 samples.

Results

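Oxidative phosphorylation in mouse testis was examined through the nuclear genes of respiratory complexes I to IV and of ATP synthase (complex V). The testis isoforms of cytochrome c oxidase were set beside their common forms where these were measured. Members were taken by gene symbol alone: the Nduf genes of series a, b, c, s and v, Sdha to Sdhd, the Uqcr genes, the Cox4 to Cox8 genes and the Atp5 genes, with names ending in a pseudogene mark left out. The symbols matched 179 of 45101 probe sets on the array, for 90 of 18193 genes. A further 10 probe sets named several genes and were left out. Of the members, 159 probe sets for 88 genes passed a filter on low values, which kept 27022 probe sets for 13897 genes in all. The filter used the mean over all arrays and not either genotype.

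Whole testes of 12-week-old mice were compared between 3 Alkbh1 knockouts (KO, labelled Alkbh1-/-) and 3 wild-type mice (WT), each giving 1 Affymetrix expression array. The product of Alkbh1 belongs to the AlkB dioxygenases, which remove alkyl groups from nucleic acids. Both groups had the C57/BL6 background according to the source label, although the genotype field spells it C53/BL6 for both. Testes were snap frozen and total RNA was prepared with Trizol. The labels do not say which part of Alkbh1 was deleted or whether the deletion was limited to a cell type. The values are the authors' normalized log2 expression values, so a difference of 1 is a doubling.

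The respiratory chain passes electrons from NADH through complex I, or from succinate through complex II, to ubiquinone, then through complex III and cytochrome c to complex IV, which reduces oxygen. Complexes I, III and IV pump protons across the inner mitochondrial membrane, and ATP synthase uses the return flow to make ATP. Most subunits are encoded in the nucleus. Some complex IV subunits and cytochrome c exist in forms that are made mainly in male germ cells, and others in forms typical of heart, skeletal muscle or lung.

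Promoter sequences are shown for 2 testis forms and 2 common forms of complex IV subunits, since the comparison of isoforms turns on such genes. Each run holds the 250 bases before the annotated start, 5′ to 3′ on the strand of the gene, from RefSeq (GRCm38.p6). All 4 genes lie on the minus strand. Cox6b2, the testis form of subunit VIb, has its window at chr7:4753095-4753344. The window of Cox6b1, its common form, is chr7:30626115-30626364. For Cox7b2, the testis form of subunit VIIb, the window is chr5:71548206-71548455. Cox6a1, the common form of subunit VIa, has its window at chr5:115348959-115349208, and capitals mark its overlapping matches to the core motif of NRF1, a transcription factor known for activating respiratory chain genes.
Cox6b2: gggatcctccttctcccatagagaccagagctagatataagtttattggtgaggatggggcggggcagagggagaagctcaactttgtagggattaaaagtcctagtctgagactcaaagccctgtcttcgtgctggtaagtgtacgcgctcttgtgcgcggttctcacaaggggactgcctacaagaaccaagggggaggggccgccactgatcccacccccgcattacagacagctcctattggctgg
Cox6b1: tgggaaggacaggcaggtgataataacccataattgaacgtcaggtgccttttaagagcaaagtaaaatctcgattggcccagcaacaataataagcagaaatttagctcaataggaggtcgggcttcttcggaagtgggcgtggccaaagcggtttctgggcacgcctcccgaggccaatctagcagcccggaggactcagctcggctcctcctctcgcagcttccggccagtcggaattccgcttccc
Cox7b2: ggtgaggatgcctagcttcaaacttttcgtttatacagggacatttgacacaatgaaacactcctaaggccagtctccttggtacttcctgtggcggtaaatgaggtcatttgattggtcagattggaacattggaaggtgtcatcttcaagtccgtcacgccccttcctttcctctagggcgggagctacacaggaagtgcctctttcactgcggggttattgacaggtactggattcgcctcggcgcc
Cox6a1: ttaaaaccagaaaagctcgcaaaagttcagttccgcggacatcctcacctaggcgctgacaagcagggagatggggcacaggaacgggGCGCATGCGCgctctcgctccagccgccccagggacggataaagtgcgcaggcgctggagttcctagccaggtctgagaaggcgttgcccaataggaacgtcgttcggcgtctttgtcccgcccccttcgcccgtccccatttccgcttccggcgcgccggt

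The search covered 300 bases, from 250 before to 50 after the start, on both strands, and 74 of the 90 member genes had a window. The NRF1 core GCGCATGC was present in 11 of these (14.9%), against 3.05% of 27025 genes. The YY1 motif AAGATGGC was present in 10 (13.5%), against 3.19% of all genes. The ETS motif ACTTCCGG, bound by GABP, was present in 5 (6.76%), against 4.31%. The cyclic AMP response element TGACGTCA was present in 3 (4.05%), against 2.03%. Uqcr11 was the only member with 2 of these motifs, NRF1 and ETS. In Cox6a1 the NRF1 matches on both strands share bases and begin 162 and 160 bases before the start. The printed windows of Cox6b2, Cox6b1 and Cox7b2 held none of the 4 motifs, which says only that these letters are not in these windows. Member windows had a median GC content of 59%, against 52.7% over all genes, and a median of 20 CG dinucleotides against 7, so members differ from all genes in base composition as well as in the motifs. These matches are descriptions of sequence and were not tested as binding sites.

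Alkbh1 itself followed its labels. Probe set 1434660_at read 5.76, 5.30 and 5.20 in KO testes, against 8.43, 8.65 and 8.72 in WT testes, and fell by 3.18 (limma adjusted p = 0.000582). A second probe set, 1438681_at, read 6.03, 5.78 and 6.10 in KO testes, against 6.97, 6.82 and 7.16 in WT testes, a difference of -1.02 (limma adjusted p = 0.0697). The groups did not overlap on either probe set. All 11 listed markers of round and elongating spermatids lay above the level filter, with a mean per array of 13.80 to 13.82 in KO testes and 13.74 to 13.82 in WT testes. All 11 had differences above 0, with a median of 0.05, where 55.9% of all genes tested were above 0. None of the 11 passed the test. Of 9 Sertoli cell markers 3 had differences above 0 and 6 below, with a median of -0.05 and none past the test. Their mean per array was 9.261 to 9.287 in KO testes and 9.323 to 9.338 in WT testes, without overlap. Marker lists of pachytene spermatocytes, spermatogonia, Leydig cells, peritubular and vascular smooth muscle, and macrophages had means per array that overlapped between groups. In that order their median differences were 0.03, -0.02, -0.06, -0.05 and 0.01, and no marker in them passed the test. The part of the cell types in the values below was not tested. In whole tissue, fewer cells of a type and less RNA per cell cannot be told apart. Correlations between arrays over the probe sets lay between 0.989 and 0.996.

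The WT arrays were not equally placed. WT replicate 1 was the lowest and WT replicate 2 the highest of all 6 arrays for 44 of 159 member probe sets (27.7%), against 13.2% of all probe sets tested. The median standard deviation over members was 0.0418 in KO testes and 0.0726 in WT testes. Over all probe sets tested it was 0.072 in KO testes and 0.103 in WT testes, so the wider WT spread was not particular to members. The comparisons below were therefore also made without each of these arrays.

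No oxidative phosphorylation gene passed the test between genotypes. Of the 159 member probe sets, 0 had an adjusted p under 0.05 (limma, Benjamini-Hochberg over all 27022), where 11 of all probe sets did (0.0407%). The lowest adjusted p among members was 0.974. At an unadjusted p under 0.05 there was 1 member, against 5.11% of all probe sets. The KO and WT values did not overlap for 8 members (5.03%), against 11% of all probe sets. Of these 8, 5 were higher in KO testes, where 7.12% of all probe sets were, and 3 were lower, where 3.84% were. The count of members that passed stayed at 0 without WT replicate 1 and without WT replicate 2, with 9 and 2 members at an unadjusted p under 0.05. The share of all probe sets in those runs is not given here, so these counts are not read as a result about members.

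Differences between genotypes were small in size as well. They ran between -0.13 for Ndufa1 and 0.25 for 1 probe set of Atp5c1, and 151 of 159 (95%) were under 0.1 in size, against 72.1% of all probe sets tested. The 95% interval of the difference lay within 1.2-fold either way for 135 members (84.9%), against 51.7% of all probe sets. Within 1.3-fold it lay for 154 of 159 members, against 22265 of all 27022 probe sets. The median standard error was 0.0619 over members and 0.0820 over all probe sets. Members were also brighter, with a median level of 11.8 over the 88 member genes against 8.74 over all genes tested. How much of these contrasts goes with level was not tested. For members with intervals beyond these bounds the data allow a wider range. The highest upper bounds were 0.491 for a dim probe set of Atp5c1 (1438809_at), 0.485 for Ndufa12 (1455806_x_at) and 0.451 for Ndufs5. The lowest lower bound was -0.46, for 1 probe set of Uqcrc2 (1435757_a_at), whose interval reached up to 0.22. Uqcrc2, a core subunit of complex III, was named after its values were seen.

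**Figure D1:**
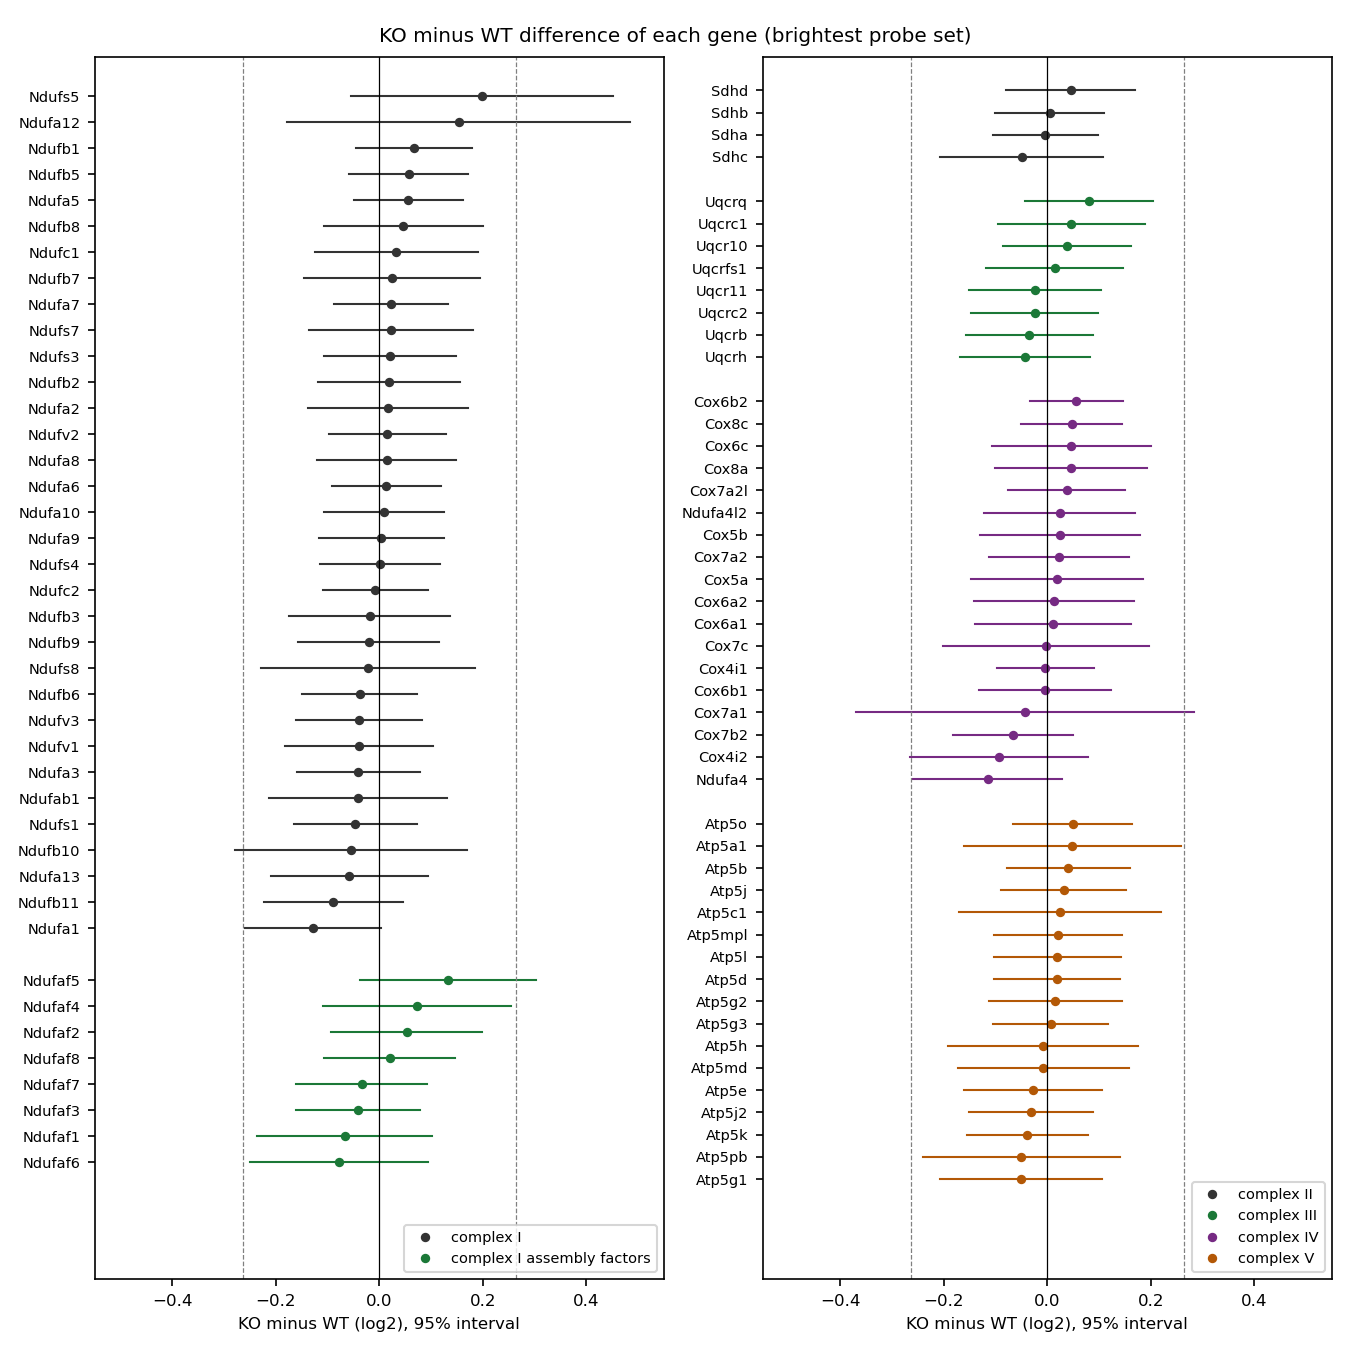
KO minus WT difference in log2 expression of each of the 88 tested genes on its brightest probe set, with bars for the 95% interval from limma, coloured by complex within each panel and with dashed lines at 1.2-fold either way. The differences run between -0.13 (Ndufa1) and 0.20 (Ndufs5), and no gene passed the adjusted threshold.

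Complex I, the NADH dehydrogenase, was represented by 33 tested genes, of which 19 were higher and 14 lower in KO testes without passing the test, with a median difference of 0.01. Ndufa1, a small membrane-arm subunit encoded on the X chromosome, had the lowest difference of all members. It read 11.60, 11.66 and 11.71 in KO testes, against 11.76, 11.86 and 11.74 in WT testes. The groups did not overlap, and the difference was -0.13 (SE 0.0565, limma adjusted p = 0.981). Ndufs5, an accessory subunit, read 11.55, 11.71 and 11.69 in KO testes, against 11.57, 11.20 and 11.60 in WT testes. Its groups overlapped, WT replicate 2 being the low value, and the difference was 0.20 (SE 0.109, limma adjusted p = 0.993).

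The brightest complex I probe sets belonged to Ndufa12 and Ndufv2. Ndufa12, an accessory subunit, read 13.09, 13.48 and 13.17 in KO testes, against 12.80, 13.18 and 13.30 in WT testes on 1455806_x_at. The values of both groups spread over a wide range and overlapped, with a difference of 0.15 (SE 0.143). The other tested probe sets of Ndufa12 gave 0.08 and 0.05. Ndufv2, an iron-sulfur subunit of the NADH-oxidising part, read 13.14, 13.16 and 13.15 in KO testes, against 13.05, 13.19 and 13.15 in WT testes, a difference of 0.02. Its KO values lay inside the WT range.

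Complex I subunits whose groups did not overlap went both ways. Ndufb1 read 11.62, 11.62 and 11.64 in KO testes, against 11.54, 11.53 and 11.61 in WT testes, a difference of 0.07. The differences of Ndufa5, of 1 probe set of Ndufb7 (1448331_at) and of 1 of Ndufb9 (1452184_at) were 0.06, 0.09 and 0.03. These accessory subunits were named after their values were seen. On its brightest probe set Ndufb9 gave -0.02, and on its brightest Ndufb7 gave 0.02, both with overlapping groups.

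The 8 Ndufaf genes, which help to assemble complex I and are not part of it, were counted apart from the subunits. Of these, 4 were higher and 4 lower in KO testes, with a median of -0.01 and 0 past the test. Ndufaf4 had probe sets of opposite sign. On 1427997_at it read 8.80, 8.66 and 8.79 in KO testes, against 8.67, 8.57 and 8.78 in WT testes, a difference of 0.07. On 1435333_at it read 7.03, 6.98 and 7.0 in KO testes, against 7.04, 7.10 and 7.14 in WT testes, a difference of -0.09. The groups overlapped on the first and not on the second, and neither probe set passed the test.

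Complex II, succinate dehydrogenase, oxidises succinate in the citric acid cycle. Sdha, the flavoprotein, read 12.00, 11.98 and 11.98 in KO testes, against 11.99, 11.98 and 12.01 in WT testes. Sdhb, the iron-sulfur subunit, read 11.79, 11.75 and 11.74 in KO testes, against 11.75, 11.75 and 11.76 in WT testes. Both had overlapping groups, with differences of -0.00434 and 0.00480. The membrane anchors Sdhc and Sdhd gave -0.05 (SE 0.0677) and 0.04 (SE 0.0535), also with overlap. Over the 4 genes the median was 0.00023, and another, dim probe set of Sdha, 1433293_at, gave 0.13 (SE 0.125).

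Complex III, the cytochrome bc1 complex, had 8 tested genes, 4 higher and 4 lower in KO testes, with a median of -0.01. Uqcrq, a small subunit, read 12.48, 12.65 and 12.58 in KO testes, against 12.48, 12.50 and 12.49 in WT testes. The groups overlapped through KO replicate 1 alone, and the difference was 0.08 (SE 0.0532, limma adjusted p = 0.993). Uqcrb, another small subunit, read 13.71, 13.69 and 13.76 in KO testes, against 13.68, 13.84 and 13.75 in WT testes, a difference of -0.04. Its KO values lay inside the WT range. Uqcrh, the hinge subunit, gave -0.04 and Uqcrc1, a core subunit, gave 0.05.

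ATP synthase had 17 tested genes, 10 higher and 7 lower in KO testes, with a median of 0.02. Atp5b, the catalytic beta subunit, read 13.06, 13.01 and 12.99 in KO testes, against 13.05, 12.91 and 12.97 in WT testes. The groups overlapped, and the difference was 0.04 (SE 0.0511). Atp5h, a peripheral stalk subunit, gave -0.01, and Atp5o, which joins the catalytic head to the stalk, gave 0.05. The genes Atp5g1, Atp5g2 and Atp5g3, which encode the same mature c subunit of the rotor ring, gave -0.05, 0.02 and 0.01.

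The gamma subunit gene Atp5c1 held the only member probe set with an unadjusted p under 0.05. On this dim probe set, 1438809_at, it read 6.68, 6.45 and 6.72 in KO testes, against 6.24, 6.35 and 6.52 in WT testes, a difference of 0.25 (SE 0.106, unadjusted p = 0.0489, limma adjusted p = 0.974). The groups overlapped. Its brighter probe set, 1416058_s_at, read 12.14, 12.12 and 12.12 in KO testes, against 11.91, 12.26 and 12.14 in WT testes, a difference of 0.02. All 3 KO values lay inside the WT range there.

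Set side by side, the complexes had medians close to that of all genes. Over the 88 member genes 50 were higher and 38 lower in KO testes (56.8% higher), with a median of 0.01, and over the 13897 genes tested 55.9% were higher, also with a median of 0.01. The share of members is thus near that of all genes. The median of every complex changed sign under at least 1 alternative. Without WT replicate 1 it was -0.0236 for complex I, -0.00935 for complex IV and -0.00561 for complex V, so no complex has a direction here. By array, the median deviation of the 33 complex I genes from their own means was -0.0107, 0.0166 and -0.00781 on the KO arrays, against -0.0521, 0.0495 and 0.0134 on the WT arrays. In complexes I, III and IV the KO arrays lay between the extremes of the WT arrays. In complex II they reached past both, with 0.0218, 0.00568 and -0.0127 on the KO arrays, against 0.012, -0.0114 and -0.00612 on the WT arrays. In complex V KO replicate 1, at 0.0277, lay above the highest WT array at 0.0193.

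**Figure D2:**
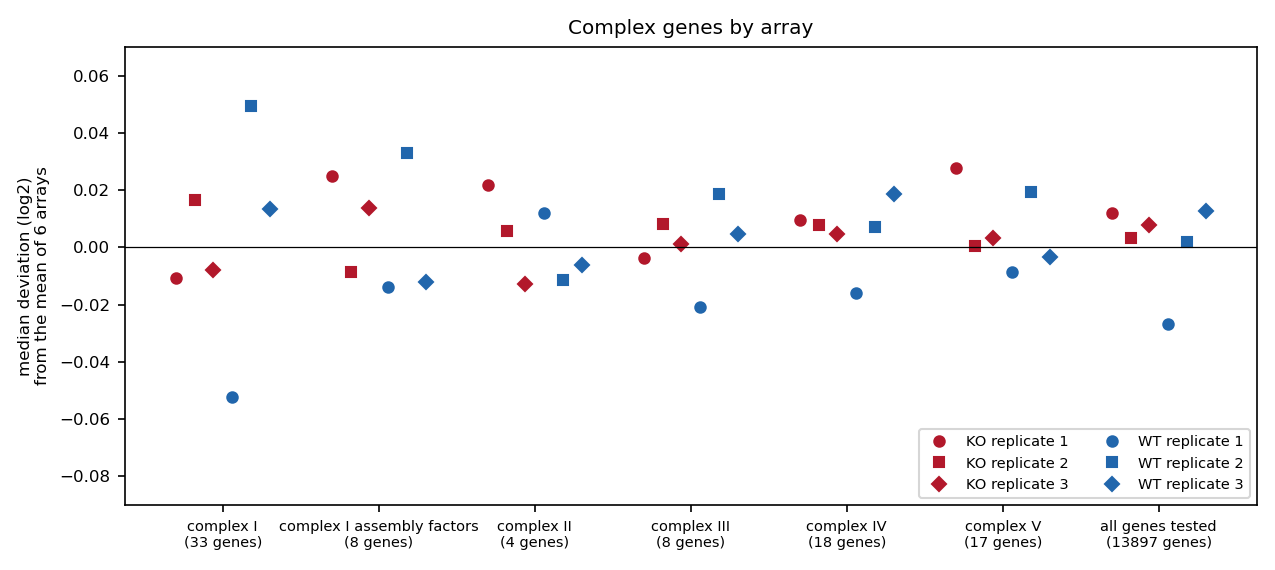
Median over the genes of each complex of the deviation in log2 expression from the gene's mean over 6 arrays, with 1 point per array and the KO arrays left of the WT arrays. In complex I the KO arrays lie between -0.0107 and 0.0166, inside the WT range of -0.0521 to 0.0495.

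Complex IV, cytochrome c oxidase, carries the tissue-specific subunits. It had 18 tested genes, with Ndufa4 and Ndufa4l2 counted here because NDUFA4 is now placed in this complex. In KO testes 11 were higher and 7 lower, with a median of 0.02. None of the testis forms passed the test. Levels of different probe sets depend on their probes as well as on RNA, so no order between genes is read from them.

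Cox6b2, the testis form of subunit VIb, read 13.49, 13.51 and 13.47 in KO testes, against 13.43, 13.42 and 13.45 in WT testes. The groups did not overlap, every KO value being the higher, but the difference was 0.06 (SE 0.0391, limma adjusted p = 0.993), with a 95% interval of -0.03 to 0.15. Cox6b1, its common form, read 10.76, 10.79 and 10.83 in KO testes, against 10.79, 10.86 and 10.75 in WT testes, a difference of -0.01 with overlapping groups.

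Cox7b2, the testis form of subunit VIIb, read 12.64, 12.65 and 12.59 in KO testes, against 12.62, 12.74 and 12.72 in WT testes. The groups overlapped, and the difference was -0.07 (SE 0.05, limma adjusted p = 0.993). Its common form, Cox7b, had no probe set naming it alone, so Cox7b2 has no pair below. Cox8c, the testis form of subunit VIII, read 13.36, 13.35 and 13.31 in KO testes, against 13.26, 13.33 and 13.29 in WT testes on 1455167_at, a difference of 0.05 (SE 0.0423). Its second probe set, 1443789_x_at, read 7.39, 7.29 and 7.27 in KO testes, against 7.30, 7.54 and 7.37 in WT testes, a difference of -0.09 (SE 0.0830). Groups overlapped on both probe sets of Cox8c, which had opposite signs. Cox8a, the common form, gave 0.05 (SE 0.0634).

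Cytochrome c, which carries electrons to complex IV, has a testis form as well and is not among the members by symbol. Cyct, the testis form, read 11.82, 11.92 and 11.96 in KO testes, against 11.74, 12.05 and 12.00 in WT testes, a difference of -0.03. Cycs, the somatic form, read 11.90, 11.89 and 12.04 in KO testes, against 11.78, 12.25 and 12.12 in WT testes, a difference of -0.11 (SE 0.115). Groups overlapped for both genes. The other tested probe sets of Cycs gave -0.09 and -0.12.

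The heart and muscle form Cox6a2 lay above the level filter of 6.02 on its brighter probe set, while Cox7a1, Cox8b and the lung form Cox4i2 lay near or below it. On that probe set Cox6a2 averaged 7.33 ± 0.0228 in KO testes and 7.32 ± 0.0667 in WT testes (SD, n = 3 each). Its second probe set, 1457633_x_at, averaged 4.44 in KO testes and 4.48 in WT testes, below the filter and untested. Cox7a1 averaged 6.29 ± 0.154 in KO testes and 6.33 ± 0.257 in WT testes (SD, n = 3 each). Cox8b, below the filter and untested, averaged 5.67 ± 0.156 in KO testes and 5.72 ± 0.0788 in WT testes (SD, n = 3 each). Cox4i2 averaged 6.01 ± 0.0590 in KO testes and 6.11 ± 0.0522 in WT testes (SD, n = 3 each), a difference of -0.09 (limma adjusted p = 0.993). Groups overlapped for each of these 4 genes, and none of the 3 that were tested passed.

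The tissues that use these forms were looked for through their markers. Of 12 striated muscle markers 6 lay above the filter. Summed over all 12, the log2 levels per array were 69.92 to 71.02 in KO testes and 70.32 to 71.49 in WT testes. The highest readings, which depend on the probes as well as on RNA, came from Ckmt2 and Tnni2. Ckmt2, a mitochondrial creatine kinase of muscle, averaged 10.05 in KO testes and 10.07 in WT testes. Tnni2, a fast skeletal troponin, averaged 7.06 in KO testes and 7.01 in WT testes. Skeletal alpha-actin, Acta1, averaged 4.58 in both groups, below the filter. Of the fat markers measured, 3 of 5 lay above the filter. Summed over all 5, the levels per array were 33.34 to 36.86 in KO testes and 32.41 to 35.48 in WT testes. Adiponectin, Adipoq, averaged 8.53 in KO testes and 8.38 in WT testes, and Cidea, a lipid droplet protein, 8.39 in KO testes and 8.47 in WT testes. The brown fat marker Ucp1 averaged 5.04 in KO testes and 5.15 in WT testes, below the filter. Fabp4, a fatty acid carrier of fat cells, read 6.84, 9.80 and 7.09 in KO testes, against 6.11, 5.77 and 8.38 in WT testes, varying widely within both groups. The part of these tissues in the levels of the isoforms was not tested.

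Among the remaining subunits, Ndufa4 had the lowest difference of complex IV. It read 9.41, 9.44 and 9.56 in KO testes, against 9.59, 9.56 and 9.61 in WT testes. The groups did not overlap, though KO replicate 3 and WT replicate 2 are equal as rounded here, and the difference was -0.12 (SE 0.0622, limma adjusted p = 0.993). Ndufa4l2, a related gene known to be induced by hypoxia, read 10.20, 10.20 and 10.18 in KO testes, against 10.20, 10.06 and 10.24 in WT testes. Its KO values lay inside the WT range, with a difference of 0.02. Cox4i1, Cox6a1 and Cox7a2, common forms of their subunits, gave -0.00389, 0.01 and 0.02.

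**Figure D3:**
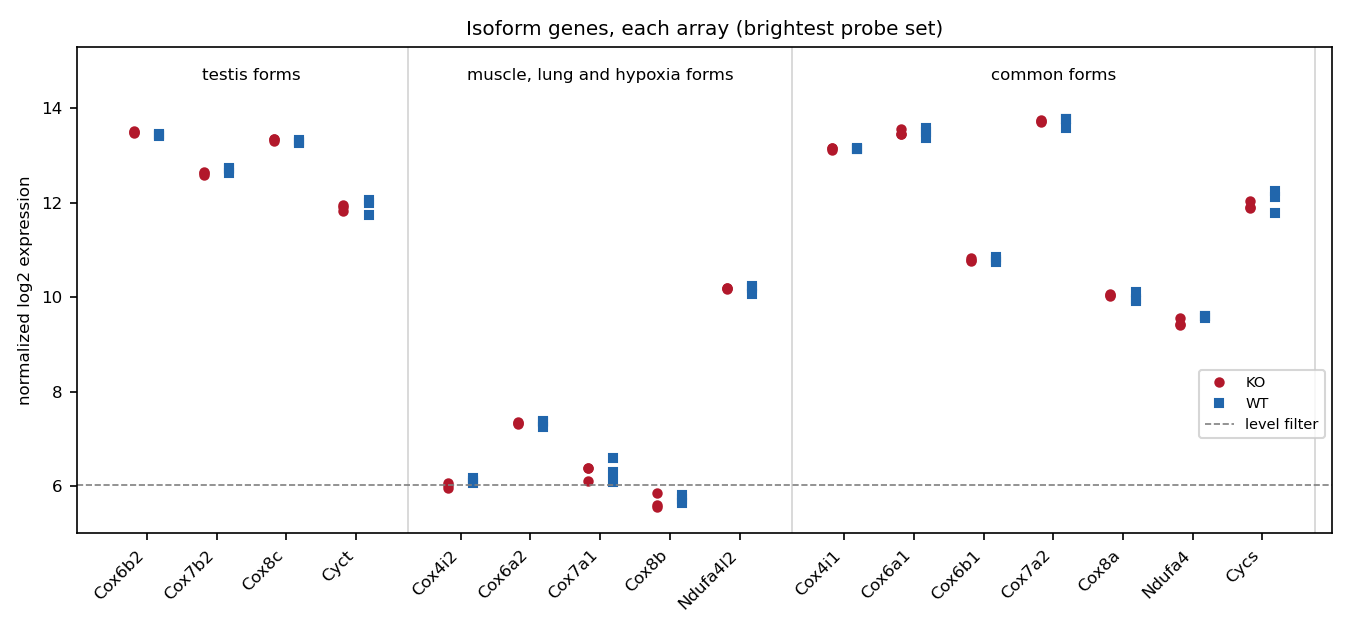
Normalized log2 expression of the isoform genes on each array, with KO circles left of WT squares and a dashed line at the level filter (6.02). Cox6b2 is the testis form whose groups do not overlap, with KO arrays at 13.47 to 13.51 and WT arrays at 13.42 to 13.45, while Cox4i2, Cox7a1 and Cox8b lie near or below the line.

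A shift between forms was then looked for within arrays. For each of 8 pairs the log2 value of the common form was subtracted from that of the other form on the same array. The other form was a tissue form, except that Ndufa4l2 and Cox7a2l are related genes and not tissue forms. KO was compared with WT by an exact two-sided permutation test, which with 3 against 3 arrays cannot give a p below 0.1. For Cox6b2 over Cox6b1 the log2 ratio was 2.73, 2.72 and 2.64 in KO testes, against 2.64, 2.56 and 2.71 in WT testes. Only the change between arrays can be read from it, which was 0.06 with overlapping groups (exact p = 0.3, adjusted over the 8 pairs 0.8). Cox8c over Cox8a changed by 0.00213 (exact p = 1), and its sign turned with the normalization, the choice of probe sets and the arrays included (-0.0659 without WT replicate 1).

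Cox4i2 over Cox4i1 was the pair whose groups did not overlap. Its log2 ratio was -7.08, -7.14 and -7.16 in KO testes, against -6.97, -7.08 and -7.06 in WT testes, a change of -0.09 (exact p = 0.1, the smallest possible, adjusted 0.8). KO replicate 1 and WT replicate 2 are equal as rounded here. Cox4i2 averaged 6.01 in KO testes and 6.11 in WT testes, near the level filter of 6.02, so this ratio rests on a low value. Ndufa4l2 over Ndufa4 changed by 0.14 (exact p = 0.2, adjusted 0.8) and Cyct over Cycs by 0.08 (exact p = 0.4, adjusted 0.8). Cox6a2 over Cox6a1, Cox7a1 over Cox7a2, and Cox7a2l over Cox7a2 changed by 0.00222, -0.07 and 0.01 (exact p of 1, 0.9 and 1). No pair passed, and a p this design cannot bring below the threshold does not show that the ratios were alike.

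Members on the X chromosome and on chromosome 12, where Alkbh1 lies, were read apart. Ndufb11, an X-linked complex I subunit, gave -0.09, -0.09 and -0.08 on its 3 probe sets. On the brightest, 1455911_x_at, it read 10.20, 10.18 and 10.25 in KO testes, against 10.23, 10.36 and 10.31 in WT testes, with overlapping groups. Together with Ndufa1, 4 of 4 X-linked member probe sets were lower in KO testes, where 419 of 650 X-linked probe sets were (64.5%), with a median of -0.03. The members thus had the sign of most X-linked probe sets, and none passed the test. On chromosome 12, Ndufb1 gave 0.07, Cox8c 0.05 and Atp5mpl, a small subunit of ATP synthase, 0.02.

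The spread within WT differed with the kind of probe set. Affymetrix names end in _at alone, or carry a letter (_a_at, _s_at, _x_at) for sets that match several transcripts or share probes between sequences. WT replicate 1 was lowest and WT replicate 2 highest of all arrays in 18 of 39 member sets ending in _a_at (46.2%), in 7 of 19 ending in _s_at (36.8%) and in 10 of 27 ending in _x_at (37%). Of the 74 without a letter it was so in 9 (12.2%), the same share as over all such probe sets (12.2%). Over all probe sets tested the share was 12.7% for _a_at, 16% for _s_at and 23.3% for _x_at.

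The same held within genes. In 32 of 36 member genes with both kinds (88.9%), WT replicate 2 minus WT replicate 1 was higher on lettered sets than on plain ones, against 58.8% of 2784 genes of the series. The median of this difference was 0.18 on lettered and -0.04 on plain sets of the members. The cause was not tested. The KO minus WT difference was higher on lettered sets in 15 of the 36 genes. Genes with several tested probe sets numbered 46, of which 28 had 1 sign and 18 had both, with a median span of 0.06. The widest spans were 0.22 for Atp5c1, 0.16 for Ndufaf4, 0.14 for Cox8c, 0.13 for Sdha and 0.10 for Ndufa12.

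**Figure D4:**
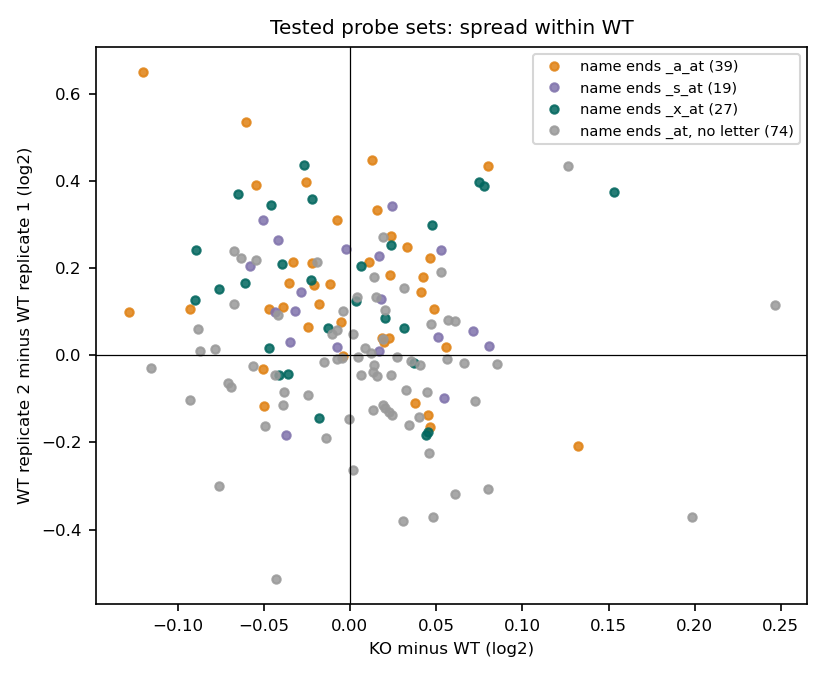
Each tested member probe set by its KO minus WT difference (horizontal, log2) and by WT replicate 2 minus WT replicate 1 (vertical, log2), coloured by the ending of its name. Lettered sets lie mostly above 0 on the vertical axis (medians of 0.15, 0.10 and 0.17 for _a_at, _s_at and _x_at), while plain ones have a median of -0.02.

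Genes around the complexes were read from lists of their roles. In none of the 8 lists of assembly factors, electron carriers, citric acid cycle enzymes and regulators did a gene pass in either direction. Among other complex I assembly factors 5 of 9 were higher and 4 lower in KO testes. Timmdc1, a membrane-arm assembly factor, read 7.22, 7.59 and 7.81 in KO testes, against 7.32, 7.12 and 6.97 in WT testes, a difference of 0.41 (SE 0.157, limma adjusted p = 0.932). Its groups overlapped. Nubpl, which delivers iron-sulfur clusters to complex I, read 10.42, 10.39 and 10.42 in KO testes, against 10.31, 10.16 and 10.31 in WT testes, without overlap (0.15, limma adjusted p = 0.967). Like Alkbh1, it lies on chromosome 12.

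Of 13 electron carriers and inner membrane carriers, 7 were higher and 6 lower. Etfb, a subunit of the flavoprotein that passes electrons from fatty acid oxidation to the chain, read 9.97, 9.98 and 9.90 in KO testes, against 9.79, 9.64 and 9.79 in WT testes. Its groups did not overlap, and the difference was 0.21 (SE 0.0651, limma adjusted p = 0.863). Coq9, needed to make ubiquinone, gave -0.17 with overlapping groups. Among 18 citric acid cycle and pyruvate entry genes, 13 were higher and 5 lower, with a median of 0.04; Pdhb, a subunit of pyruvate dehydrogenase, gave 0.12 and Sucla2, a subunit of succinyl-CoA synthetase, gave 0.08.

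Assembly factors of the other complexes were counted in the same way. For complex II, 2 of 4 were higher, Sdhaf1 giving 0.07 and Sdhaf3 -0.11. For complex III, counted with cytochrome c1, 5 of 7 were higher, Ttc19 giving 0.14 and Bcs1l -0.06. For complex IV, 9 of 19 were higher, Coa3 giving 0.07 and Pet100 -0.07. For ATP synthase, 2 of 4 were higher, Atpaf2 giving 0.07 and Tmem70 -0.10. Among 12 regulators of mitochondrial gene expression 7 were higher and 5 lower. Ppargc1b, a coactivator of mitochondrial genes, read 7.04, 6.92 and 7.15 in KO testes, against 6.57, 6.67 and 7.0 in WT testes, with overlap (0.29, limma adjusted p = 0.964), and the transcription factor Nrf1 gave 0.11.

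The 20 member probe sets below the level filter included the only ones for Cox8b and Ndufb4, a complex I subunit. Their means reached 6.0 at most and their differences lay between -0.12 and 0.23. They were not tested.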

How the data were processed

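1 value table was deposited by the authors, normalized and on a log2 scale, as read from the values, covering 45101 probe sets and 6 arrays. The submitters' processing notes name GCOS 1.4. The sources used here do not give background correction, summary or normalization. Signal over background is unknown for each probe set. Grouping followed the titles. Control probe sets (64) were left out and the upper 60% by mean log2 kept. KO was compared with WT by limma 3.58.1 (R 4.3.3; lmFit, eBayes with trend, two-sided, Benjamini-Hochberg, threshold 0.05), tested on simulated data. Gene names came from the platform annotation (34945 probe sets with 1 gene, 932 several, 9160 none) with RefSeq (GRCm38.p6). Each gene stands by its brightest probe set. The rule for named genes took isoform pairs, in each complex the genes of smallest p and highest level, widest spans, X and chromosome 12 members, and up to 2 genes a list. The Atp5g genes and those without overlap were added after their values were seen. Members and lists were chosen with earlier results of these data known. Isoform log ratios were compared by exact permutation. Alternatives covered normalization, filter, variance model, array weights, replicate block, probe set choice and single arrays left out. Figures used matplotlib 3.10.9.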

Additional observations from a re-analysis of the deposited data

How the results depend on the processing

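The count of member probe sets that passed was 0 under every alternative run, including the replicate block, with 0 to 9 at an unadjusted p under 0.05. The latter counts stand without the share of all probe sets under each alternative and are not read further. The lowest adjusted p of any member was 0.333, with array weights. The titles number the replicates and do not say whether same-numbered mice belong together. Deviations of same-numbered arrays correlated at 0.223, -0.024 and 0.0964, and those of differently numbered arrays at -0.279 to 0.252. These values do not settle whether the replicates are paired, and the replicate block left 0 calls. The median of every complex changed sign under some alternative. Under quantile normalization they were -0.0297 for complex II, -0.0302 for III, -0.0252 for IV and -0.0127 for V. Array weights gave -0.0113 for IV and -0.0143 for V, and WT replicate 3 as the only WT array gave -0.0144 and -0.00989. With the upper 40% kept, the assembly factors had 0.0198. Leaving out 1 array gave -0.0131 to 0.0139 for III, -0.00935 to 0.0326 for IV and -0.00561 to 0.0253 for V.

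Isoform log ratios turned sign as follows. Averaging a gene's probe sets gave -0.0196 for Cox6a2 over Cox6a1 and -0.0607 for Cox8c over Cox8a. Quantile normalization gave -0.0242 for Cox8c. With WT replicate 3 alone as WT, Cox6a2 had -0.0144, Cox6b2 -0.0108, Cox7a1 0.0209 and Cox8c -0.0213. Leaving out 1 array gave -0.0869 to 0.083 for Cox6a2, -0.219 to 0.13 for Cox7a1, -0.0659 to 0.0585 for Cox8c and -0.0279 to 0.0732 for Cox7a2l over Cox7a2. Differences of named genes smaller than their own SE were taken to have no direction, and 46 of 321 such values changed sign. Of the 153 values of larger differences, 1 did, Ndufa12 with WT replicate 3 alone as WT (-0.0504). The cause was not tested. An alternative chosen after seeing the data, probe sets without a lettered ending, gave 0.0138 for complex I, 0.0191 for IV and 0.0193 for V. It also gave 0.0048 for II, 0.00173 for III, whose sign thus turned, and -0.0198 for the complex I assembly factors. With 3 arrays a group, small changes in single genes could go undetected, and the normalization used is unknown.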
